A study of Mus musculus with 12 samples.

Results

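The genes described here are the receptors, secreted ligands, ubiquitin ligases and co-receptors of the R-spondin branch of WNT signalling in mouse skin keratinocytes. Members were all probe sets that the platform annotation ties to exactly 1 gene with the symbol Lgr4, Lgr5, Lgr6, Rspo1, Rspo2, Rspo3, Znrf3, Rnf43, Lrp5 or Lrp6. The rule found 17 probe sets of these 10 genes, out of 45037 probe sets and 18193 genes in the series. Rspo1, Rnf43 and Lrp5 have 1 probe set each and the other genes have 2 each. Keratinocytes from the skin of mice of the strain labelled C57 DBA had been sorted with magnetic beads (MACS) into a CD34+ and a CD34- fraction, CD34 being a glycoprotein that bulge cells of the hair follicle carry on their surface. Mice were pooled, 6 or more at a time, for 3 isolations, and each RNA went on 2 Affymetrix arrays, which gives 6 CD34+ and 6 CD34- arrays. The labels give no age, sex, treatment or genotype, nor which arrays hold the same RNA. An n of 6 arrays is thus 3 RNAs, and p-values over arrays are too small wherever arrays of 1 RNA are alike.

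R-spondins are secreted proteins that bind LGR4, LGR5 and LGR6, receptors with leucine-rich repeats, and at the same time the membrane ligases ZNRF3 and RNF43. Without R-spondin these ligases mark Frizzled receptors for removal from the cell surface, and the joint complex with LGR takes the ligases away instead, so that more Frizzled stays to signal with the WNT co-receptors LRP5 and LRP6. In the hair follicle Lgr5 is known as a marker of the lower bulge and hair germ, and Lgr6 of the isthmus above the bulge.

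All values are log2 RMA values of single probe sets, and since each probe set binds its target with its own strength, a higher mean on the array is used only to pick probe sets and genes to name, not as a higher amount of mRNA. RMA gives no detection call, so the low end of the scale was taken from the Trpn controls (3 probe sets, 2.31 to 2.95). Cd34 itself averaged 10.15 ± 0.55 in CD34+ and 3.23 ± 0.30 in CD34- arrays (n = 6, ± SD). The arrays differed in quality between fractions. Actb read higher by its 3' than by its 5' control, by 3.95 to 5.65 in CD34+ arrays and 1.82 to 3.24 in CD34- arrays, and the SD over probe sets was 1.92 to 2.07 in CD34+ arrays 1, 3 and 5, below the 2.19 to 2.32 of the other 9 arrays. The keratinocyte label was borne by Krt5 (12.17 in CD34+ and 13.20 in CD34- arrays) and Krt14 (11.83 in CD34+ and 13.20 in CD34- arrays). These lay near the top of the scale in both fractions. Both were lower in CD34+ cells, as were 5 of 7 basal keratinocyte genes, beside 17.5% of all genes.

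By each gene's highest-mean probe set, the CD34+ fraction carried more Lgr5 mRNA and less Lgr6, Rspo3, Znrf3 and Rnf43 mRNA than the CD34- fraction. Lgr6 and Rspo3 each passed by only 1 of their 2 probe sets. Lgr4, Rspo1, Rspo2, Lrp5 and Lrp6 did not pass the test. Of all 45037 probe sets 21.5% passed in either direction. Of the 17 member probe sets 2 were higher in CD34+ cells (11.8%, against 7.64% of all 45037 probe sets) and 5 were lower (29.4%, against 13.9% of all probe sets), by limma with a Benjamini-Hochberg adjusted p under 0.05 over all probe sets. Without CD34+ arrays 1, 3 and 5 it was 3 higher and 3 lower, since Lgr6 1436218_at and Znrf3 1437646_at were lost and Lgr4 1433891_at was gained. Arrays of the fractions did not overlap for 2 higher and 3 lower probe sets, against 4.00% and 6.86% of all probe sets in those directions. With 1 probe set per gene, the one with the highest mean, 1 of 10 genes was higher and 4 were lower, against 7.73% and 17.5% of all 18193 genes. The median log2 fold change was 0.01 over the member probe sets and 0.06 over all probe sets. In bulk fractions such as these, fewer cells of a type and less RNA per cell cannot be told apart.

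**Figure D1:**
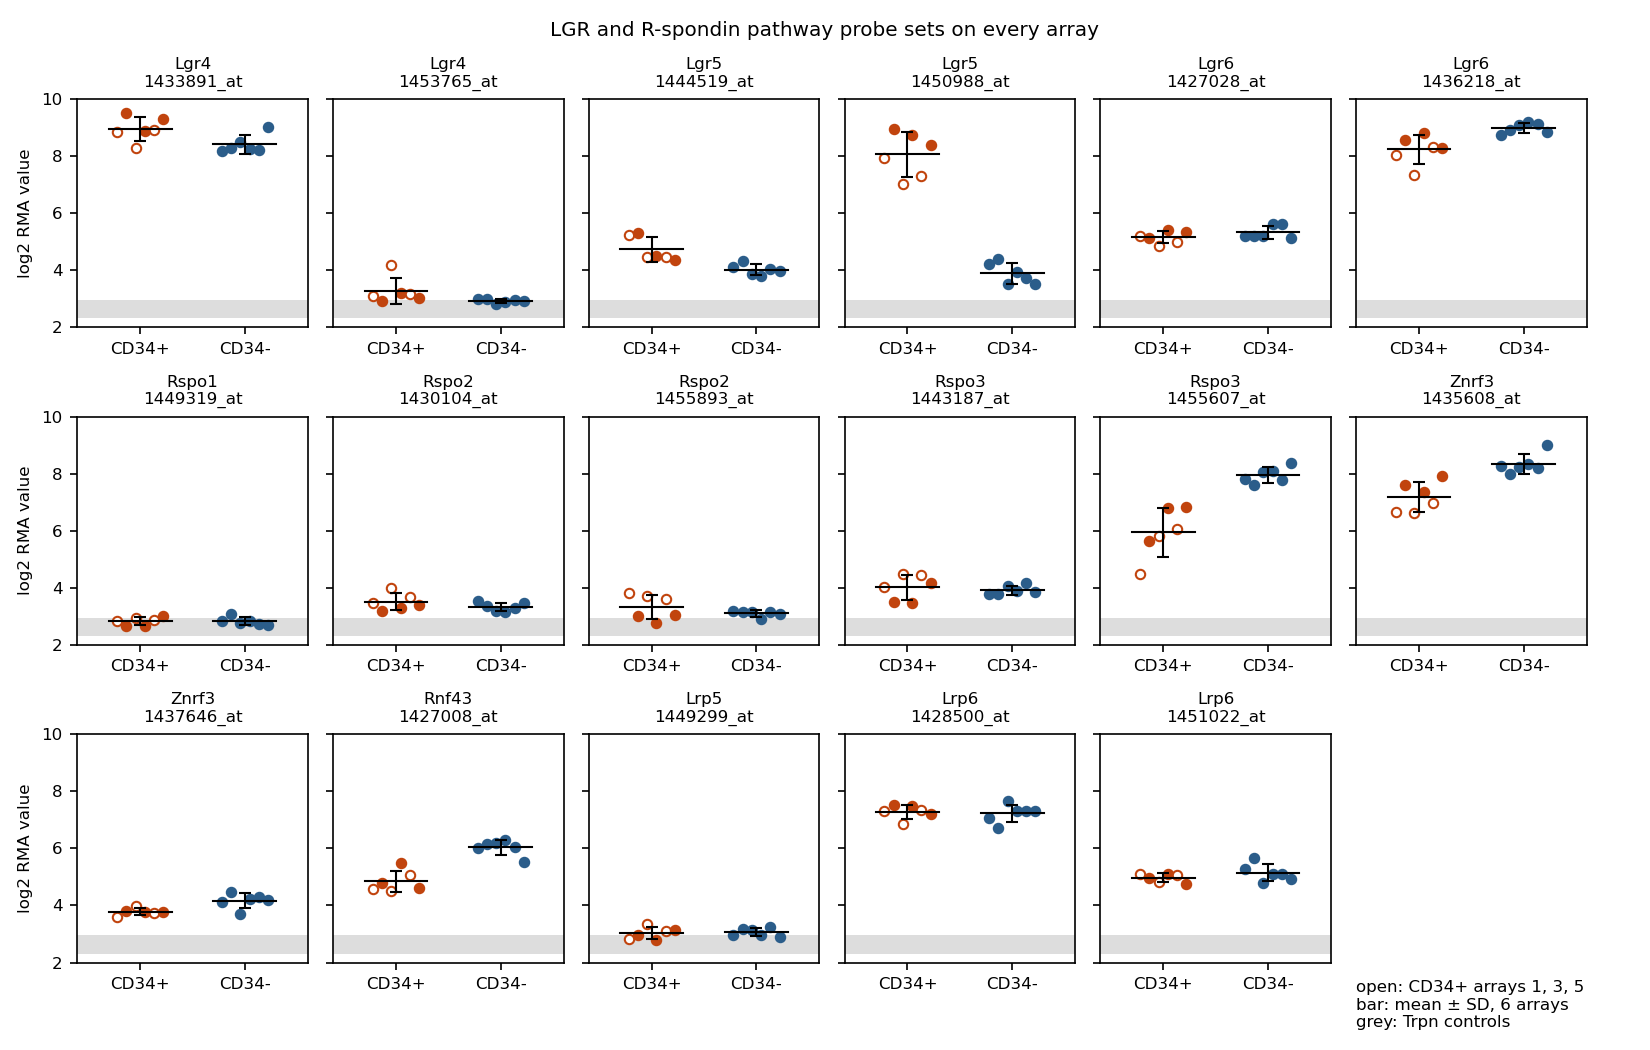
Log2 RMA values of the 17 probe sets on every array, with CD34+ arrays left and CD34- arrays right in each panel. Points are arrays in the order of their numbers, bars are mean ± SD of 6 arrays, open points are CD34+ arrays 1, 3 and 5, and the grey band is the range of the Trpn controls (2.31 to 2.95). Lgr5 probe set 1450988_at lies between 7.03 and 8.96 in CD34+ arrays and between 3.50 and 4.40 in CD34- arrays.

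Among the receptors, Lgr5 (chr10:115450314-115587780, GRCm38.p6) had the largest difference of the 17 probe sets. Its probe set 1450988_at read from 7.03 to 8.96 with a median of 8.16 in CD34+ arrays, and from 3.50 to 4.40 with a median of 3.83 in CD34- arrays. The fractions were apart by more than 2 log2 units at their nearest arrays, and no CD34- value lay in the range of the Trpn controls. The CD34- mean of 3.88 was low all the same, below the median of all probe sets on those arrays (4.19 to 4.21). This amounts to a log2 fold change of 4.18 (SE 0.31, 95% interval 3.50 to 4.85, limma adjusted p = 2.72e-06), an 18.1-fold higher level in CD34+ cells. The CD34+ arrays themselves were uneven. Arrays 1, 3 and 5 read 7.93, 7.03 and 7.28, and arrays 2, 4 and 6 read 8.96, 8.75 and 8.38, so that the difference was 4.82 without arrays 1, 3 and 5 (limma adjusted p = 5.63e-07).

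The second Lgr5 probe set, 1444519_at, also rose, by far less. It read from 4.36 to 5.31 with a median of 4.48 in CD34+ arrays and from 3.78 to 4.32 with a median of 3.99 in CD34- arrays. The ranges came within 0.1 of each other without overlapping. Its log2 fold change of 0.72 (SE 0.18) passed by limma (adjusted p = 0.0108), and with means of arrays 1-2, 3-4 and 5-6 it did not pass (adjusted p = 0.0640). Arrays 1 and 2 were the highest of their fraction for this probe set, with 5.23 and 5.31 among CD34+ arrays and 4.10 and 4.32 among CD34- arrays. Both Lgr5 probe sets gave the same direction.

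Lgr6 (chr1:134983300-135105374), the paralog of the isthmus, went the other way. Probe set 1436218_at read from 7.34 to 8.81 with a median of 8.31 in CD34+ arrays, and from 8.74 to 9.18 with a median of 9.0 in CD34- arrays. Only CD34+ array 4, at 8.81, reached into the CD34- range. A log2 fold change of -0.75 (SE 0.20) resulted, a 1.68-fold lower level in CD34+ cells (limma adjusted p = 0.0162). It was -0.45 after a further quantile normalization (adjusted p = 0.0281). Without CD34+ arrays 1, 3 and 5 it was -0.43 and did not pass (limma adjusted p = 0.0602). The other probe set, 1427028_at, averaged 5.15 ± 0.21 in CD34+ and 5.32 ± 0.22 in CD34- arrays (n = 6, ± SD) and did not pass (log2 fold change -0.17, 95% interval -0.44 to 0.09, limma adjusted p = 0.325).

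Lgr4 (chr2:109917647-110014257), the LGR receptor with the broadest expression among tissues, did not pass with 12 arrays. Lgr4 1433891_at read from 8.28 to 9.52 with a median of 8.90 in CD34+ arrays and from 8.17 to 9.02 with a median of 8.27 in CD34- arrays. Most CD34+ arrays lay above most CD34- arrays, with CD34+ array 3 (8.28) and CD34- array 6 (9.02) as the exceptions. On average the fractions differed by 0.55 (95% interval 0.12 to 0.98, limma adjusted p = 0.0633). It passed at 0.83 without CD34+ arrays 1, 3 and 5 (limma adjusted p = 0.0176) and at 0.86 after a further quantile normalization (adjusted p = 0.00130). It also passed at 0.69 without CD34+ array 3 (adjusted p = 0.0137), at 0.68 without CD34- array 6 (adjusted p = 0.0232) and with the array number as a block (adjusted p = 0.0445). It did not pass after median centring (0.45, adjusted p = 0.173), with means of arrays 1-2, 3-4 and 5-6 (adjusted p = 0.0635) or with 1 probe set per gene (adjusted p = 0.0553). Nor did it pass with a filter on dim probe sets (adjusted p = 0.0543), a trended robust variance (adjusted p = 0.0674) or any other single array left out. The second probe set, 1453765_at, averaged 3.27 ± 0.47 in CD34+ and 2.92 ± 0.07 in CD34- arrays, with 1 CD34+ and 3 CD34- values within the Trpn range (log2 fold change 0.34, adjusted p = 0.178).

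Since a call in 1 paralog and none in another does not show that they differ, the differences between paralogs were tested on the highest-mean probe set of each gene, as the log2 value of one minus that of the other on each array. The 5 pairs were tested with two-sided exact permutation tests over the 924 splits of the 12 arrays and adjusted over the 5 pairs, with the Lgr5 result already known. Lgr5 minus Lgr6 averaged -0.17 ± 0.49 in CD34+ and -5.10 ± 0.47 in CD34- arrays (n = 6, ± SD), a difference of 4.93 (exact permutation p = 0.00216, the smallest the splits can give, adjusted p = 0.00541). Lgr5 minus Lgr4 differed by 3.62 between fractions (exact permutation p = 0.00216, adjusted p = 0.00541). Lgr6 minus Lgr4 averaged -0.73 ± 0.36 in CD34+ and 0.58 ± 0.41 in CD34- arrays, a difference of -1.31 (exact permutation p = 0.00433, adjusted p = 0.00722), which was -1.26 without CD34+ arrays 1, 3 and 5 (adjusted p = 0.0397). This difference kept its size without those arrays while its 2 parts moved. Lgr6 went from -0.75 to -0.43, no longer past the threshold, and Lgr4 from 0.55 to 0.83. With means of arrays 1-2, 3-4 and 5-6, 3 against 3, the smallest exact p is 0.10, so no pair could pass. That these arrays share an RNA is assumed, since the labels do not say so.

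Promoter windows in the RefSeq table (GRCm38.p6, 250 bases before to 50 bases from the annotated start on) were found for Lgr4, Lgr6, Rspo1 and Rnf43, the last with 2 starts. Those of Lgr6 and Rnf43, the members that fell in CD34+ cells and have an entry, are shown, each 5' to 3' on the gene's strand, with the 50 bases from the start on in capitals. They lie at chr1:135105227-135105526 (minus strand), chr11:87662837-87663136 and chr11:87699647-87699946 (both plus strand). The Lgr6 gene span given above ends within its window, so part of its lower-case bases lies inside that span. The second Rnf43 window lies wholly inside the Rnf43 gene span.
Lgr6: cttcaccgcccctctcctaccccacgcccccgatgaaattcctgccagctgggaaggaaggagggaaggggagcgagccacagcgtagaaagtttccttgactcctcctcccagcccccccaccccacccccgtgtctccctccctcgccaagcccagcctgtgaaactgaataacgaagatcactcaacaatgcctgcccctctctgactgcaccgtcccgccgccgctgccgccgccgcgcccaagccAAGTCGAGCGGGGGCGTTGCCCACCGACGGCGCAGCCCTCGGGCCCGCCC
Rnf43, first start: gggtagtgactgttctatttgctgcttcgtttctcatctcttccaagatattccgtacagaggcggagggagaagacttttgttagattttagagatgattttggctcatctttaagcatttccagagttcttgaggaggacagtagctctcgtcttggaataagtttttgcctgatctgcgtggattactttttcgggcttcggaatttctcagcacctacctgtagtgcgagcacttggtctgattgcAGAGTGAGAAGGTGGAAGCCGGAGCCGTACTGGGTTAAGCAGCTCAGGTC
Rnf43, second start: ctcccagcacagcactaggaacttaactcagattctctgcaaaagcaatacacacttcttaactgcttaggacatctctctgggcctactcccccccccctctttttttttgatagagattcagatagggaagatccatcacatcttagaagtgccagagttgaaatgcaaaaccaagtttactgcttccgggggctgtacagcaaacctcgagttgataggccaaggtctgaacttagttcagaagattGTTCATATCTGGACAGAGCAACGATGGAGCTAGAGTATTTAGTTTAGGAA
The Lgr6 window holds 24 CpG dinucleotides and 67.7% G and C, the first Rnf43 window 10 and 46.7%, and the second 3 and 44.3%, against a median of 7 CpG over all 32851 windows. The cores CTTTGA and CTTTGT, sequences bound by TCF/LEF factors, were searched on both strands and stood in 0 of the 5 member windows, against 16.0% and 18.7% of all windows. These counts describe the letters in these windows only.

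Of the ligands, Rspo3 (chr10:29453106-29535867) fell in CD34+ cells by 1 of its 2 probe sets. Probe set 1455607_at read from 4.47 to 6.82 with a median of 5.95 in CD34+ arrays, and from 7.59 to 8.39 with a median of 7.93 in CD34- arrays. The fractions did not overlap, and the CD34+ arrays spread over more than 2 log2 units, with array 1 lowest. The difference was -2.02 on the log2 scale (SE 0.33, 95% interval -2.72 to -1.31, limma adjusted p = 0.000807), a 4.04-fold lower level in CD34+ cells, and -1.53 without CD34+ arrays 1, 3 and 5 (adjusted p = 0.00313). Probe set 1443187_at, which averaged 4.01 ± 0.44 in CD34+ and 3.92 ± 0.15 in CD34- arrays (n = 6, ± SD), did not pass (log2 fold change 0.09, 95% interval -0.29 to 0.47, limma adjusted p = 0.718). The probe sets thus disagree, and the fall rests on 1455607_at, which has the higher mean. The means of 1443187_at lay below the array medians over all probe sets (4.23 to 4.43 in CD34+ and 4.19 to 4.21 in CD34- arrays). Whether 1443187_at reads Rspo3 mRNA in these cells was not tested.

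Rspo1 and Rspo2 lay close to the Trpn controls in either fraction. Rspo1 (chr4:124986401-125009102) averaged 2.83 ± 0.15 in CD34+ and 2.82 ± 0.14 in CD34- arrays (n = 6, ± SD), with 4 CD34+ and 5 CD34- values within the Trpn range (log2 fold change 0.01, 95% interval -0.20 to 0.21, limma adjusted p = 0.962). Rspo2 (chr15:43020788-43171594) averaged 3.51 ± 0.29 in CD34+ and 3.33 ± 0.16 in CD34- arrays by 1430104_at, and 3.32 ± 0.43 in CD34+ and 3.10 ± 0.11 in CD34- arrays by 1455893_at. Neither Rspo2 probe set passed (log2 fold changes 0.18 and 0.22, limma adjusted p = 0.341 and 0.350). CD34+ arrays 1, 3 and 5 were the 3 highest of their fraction for both Rspo2 probe sets, and without them the log2 fold changes were -0.03 and -0.16. Rspo4, the remaining R-spondin, was counted with the other pathway genes and did not pass (log2 fold change 0.34, limma adjusted p = 0.163).

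The T cell, Langerhans and myeloid, basal keratinocyte and isthmus lists had negative median log2 fold changes, the direction of the Rspo3 call. The other marker lists had positive medians. The counts of marker genes that follow stand beside 7.73% of all genes higher and 17.5% lower. All 7 measured T cell genes were lower in CD34+ cells, with a mean over the list of 5.15 to 6.12 in CD34+ and 6.91 to 8.01 in CD34- arrays, as were 5 of 8 Langerhans and myeloid genes (6.04 to 6.23 in CD34+ and 6.55 to 7.33 in CD34- arrays). The highest means in these lists were those of Ptprc (log2 fold change -2.80) and Cd3g (-3.29), and H2-Aa (-0.58, not past the threshold) and H2-Eb1 (-0.73). Another H2-Aa probe set passed as lower. Of 8 endothelial genes 0 passed by limma with adjustment over all probe sets (2 had an unadjusted p under 0.05), and the list averaged 3.61 to 3.98 in CD34+ and 3.59 to 3.70 in CD34- arrays, led by Eng and Kdr. Of 11 dermal fibroblast genes 6 were higher and 1, Thy1, chosen after its value was seen, was lower, with list means of 6.23 to 7.52 in CD34+ and 5.28 to 6.17 in CD34- arrays. Col1a2 (3.15), Col5a2 (3.02) and Dcn (2.21), also chosen after their values were seen, were among the higher ones, and Vim (0.68) and Mmp2 (-0.20), with the highest means, did not pass. Of 12 dermal papilla genes 5 were higher (3.70 to 4.21 in CD34+ and 3.20 to 3.44 in CD34- arrays), with Trps1 (1.46) and Alpl (0.44, not past the threshold) having the highest means. Wif1 and Hhip (1.03) were among the higher ones, and 0 of the 12 genes were lower. Corin and Sox2, chosen like Hhip after their values were seen, averaged within the Trpn range in both fractions. Of 8 melanocyte genes 2 were higher and 1 lower, with Mitf (3.13) and Dct (-0.36, not past the threshold) having the highest means, and of 5 smooth muscle genes 1 was higher, while Acta2 (0.42) and Tagln (0.28), with the highest means, did not pass. The part of these cell types in the Rspo3, Lgr5 and Lgr6 values was not tested.

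Both ligases were lower in CD34+ cells. Znrf3 (chr11:5276329-5444847) read from 6.63 to 7.93 with a median of 7.16 in CD34+ arrays, and from 7.98 to 9.02 with a median of 8.25 in CD34- arrays, by 1435608_at. The nearest arrays of the fractions lay within 0.1 of each other, and CD34- array 6 stood highest. The level was 2.21-fold lower in CD34+ cells, at a log2 fold change of -1.15 (SE 0.23, limma adjusted p = 0.00363), and at -0.70 without CD34+ arrays 1, 3 and 5 (adjusted p = 0.0441). The second probe set, 1437646_at, averaged 3.79 ± 0.12 in CD34+ and 4.16 ± 0.26 in CD34- arrays (n = 6, ± SD) and passed (log2 fold change -0.37, limma adjusted p = 0.0383). That call was lost without any of 8 single arrays (CD34+ arrays 1, 5 and 6 and every CD34- array other than 3), with the largest adjusted p at 0.0854, on leaving out CD34+ arrays 1, 3 and 5 at once (adjusted p = 0.120), and with means of arrays 1-2, 3-4 and 5-6 (adjusted p = 0.0552).

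Rnf43 (chr11:87663087-87735539), whose promoter windows are given above, read from 4.52 to 5.49 with a median of 4.70 in CD34+ arrays, and from 5.53 to 6.30 with a median of 6.10 in CD34- arrays. The fractions did not overlap, although CD34+ array 4 (5.49) and CD34- array 6 (5.53) nearly met. The level was 2.29-fold lower in CD34+ cells, at a log2 fold change of -1.20 (95% interval -1.57 to -0.82, limma adjusted p = 0.000377), and at -1.08 without CD34+ arrays 1, 3 and 5 (adjusted p = 0.00596). Rnf43 minus Znrf3 averaged -2.34 ± 0.59 in CD34+ and -2.30 ± 0.61 in CD34- arrays (n = 6, ± SD), a difference of -0.05 (two-sided exact permutation p = 0.931), where the SD of about 0.6 limits what could be seen. On CD34- array 6 the ligases parted, Znrf3 being the highest and Rnf43 the lowest of its fraction.

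The co-receptors showed no change past the threshold. Lrp6 (chr6:134446476-134566913) read from 6.84 to 7.51 with a median of 7.34 in CD34+ arrays and from 6.73 to 7.65 with a median of 7.30 in CD34- arrays, by 1428500_at. The CD34- range enclosed the CD34+ range. The means differed by 0.06 on the log2 scale, with a 95% interval of -0.27 to 0.39 (limma adjusted p = 0.795), and that of 1451022_at was -0.18, with an interval of -0.47 to 0.11 (adjusted p = 0.341). Lrp5 (chr19:3584825-3686585) averaged 3.03 ± 0.21 in CD34+ and 3.06 ± 0.14 in CD34- arrays (n = 6, ± SD), next to the Trpn controls, with 2 CD34+ and 1 CD34- values within their range (log2 fold change -0.03, limma adjusted p = 0.830). Lrp6 minus Lrp5 differed by 0.09 between fractions (two-sided exact permutation p = 0.667). With Lrp5 next to the Trpn controls, this test cannot show whether the co-receptors change alike.

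**Figure D2:**
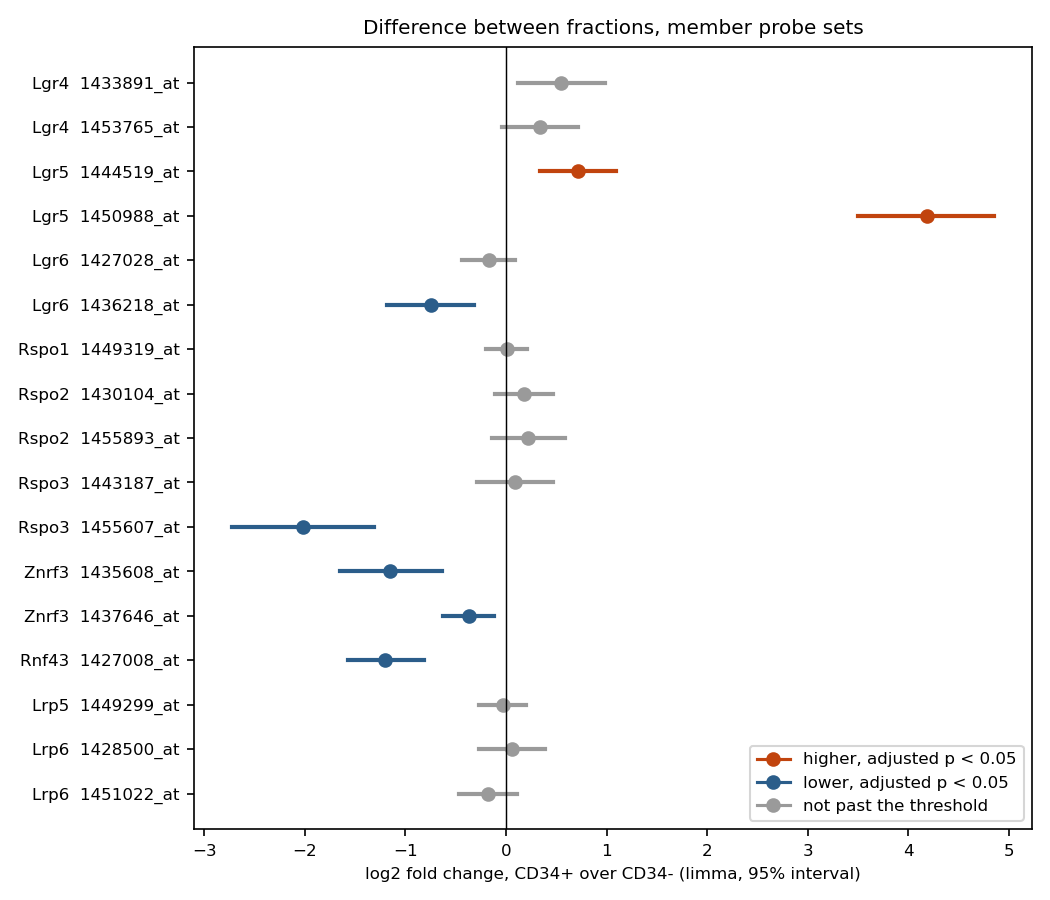
Log2 fold change of each of the 17 probe sets, CD34+ over CD34-, with limma's 95% interval. Red marks probe sets higher and blue those lower past the threshold, and grey the rest. The changes run from -2.02 for Rspo3 1455607_at to 4.18 for Lgr5 1450988_at, and Lgr4 1433891_at has an interval above 0 but an adjusted p of 0.0633.

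The order of the 5 genes that passed, by highest-mean probe set, was Lgr5 (4.18), Lgr6 (-0.75), Znrf3 (-1.15), Rnf43 (-1.20) and Rspo3 (-2.02). The intervals of Lgr6, Znrf3 and Rnf43 overlapped, so their order is within the error, and that of Rspo3 (-2.72 to -1.31) overlapped those of Znrf3 (-1.65 to -0.64) and Rnf43 (-1.57 to -0.82).

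**Figure D3:**
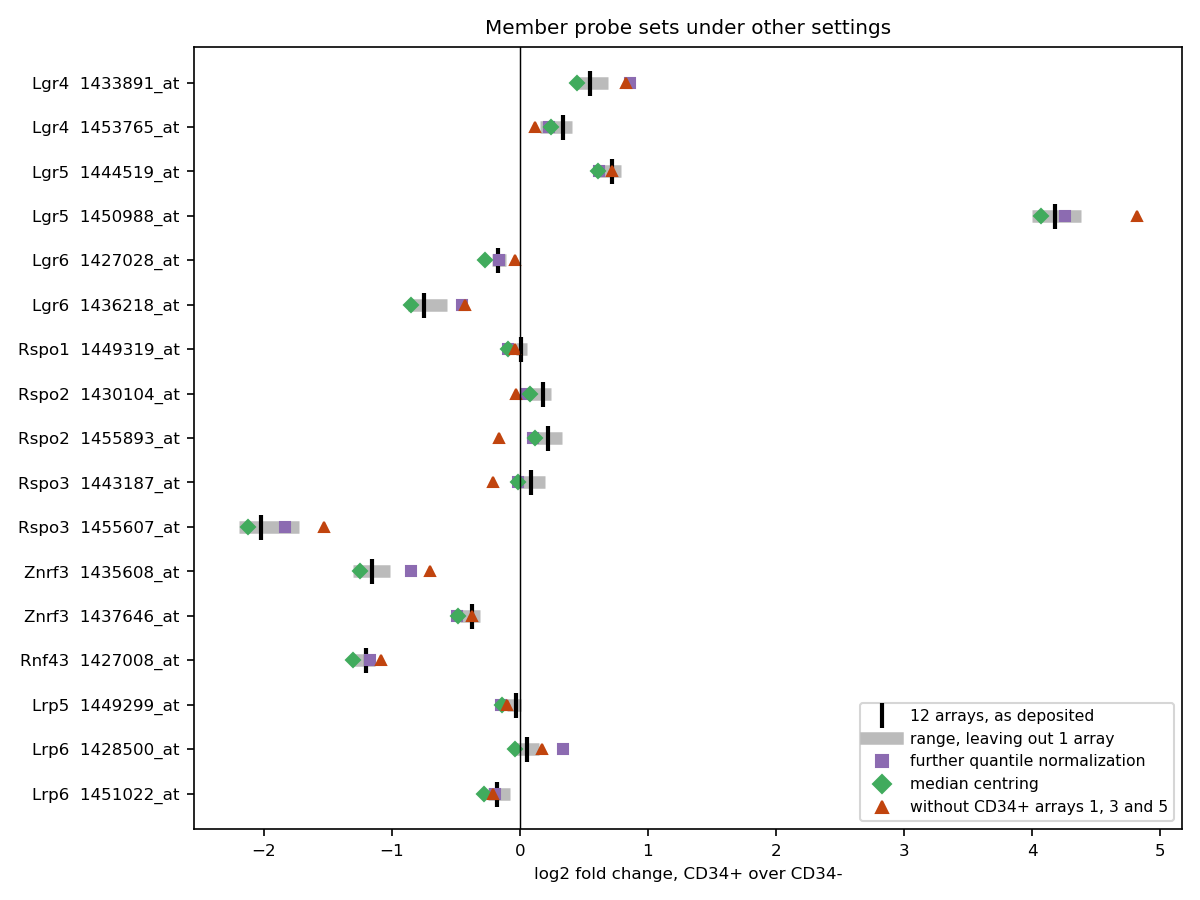
Log2 fold change of each member probe set, CD34+ over CD34-, with 12 arrays as deposited (black tick), the range on leaving out 1 array at a time (grey bar) and 3 alternatives (coloured marks). The marks of Lgr5 1450988_at, Rspo3 1455607_at, Znrf3 1435608_at and Rnf43 keep the sign of the tick. For Rspo1, Rspo2, Rspo3 1443187_at and Lrp6 1428500_at the tick and marks together lie on both sides of 0.

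Other genes of the pathway were read by the highest-mean probe set of each gene, and the counts below stand against 7.73% of all genes higher and 17.5% lower, with a median log2 fold change of 0.04 over all genes. Of 17 measured other receptors and co-factors, a list that also holds the ligand Rspo4, 7 rose in CD34+ cells and 2 fell, with a median log2 fold change of 0.34. Fzd2 averaged 9.29 ± 0.97 in CD34+ and 6.81 ± 0.21 in CD34- arrays (n = 6, ± SD), a log2 fold change of 2.48 (SE 0.35, limma adjusted p = 0.000322). Fzd3 (1.70) and Fzd7 (1.49), Frizzled receptors too, rose as well. Chosen after their values were seen, the other rises were Fzd1 (1.30), Fzd4 (0.53), Fzd9 (0.50) and the receptor kinase Ror2 (0.79), and the falls were Fzd6 (-0.65) and Kremen1 (-0.54), a DKK receptor. The other probe sets of Fzd1, Fzd6, Fzd7, Ror2 and Kremen1 did not pass, so each of these calls rests on 1 probe set. Ryk did not pass by its highest-mean probe set (-0.14), while its 2 other probe sets passed as lower. Of 10 Frizzled genes 6 rose and 1 fell. Without CD34+ arrays 1, 3 and 5 the list had 7 rises and 1 fall, since Fzd4 (limma adjusted p = 0.0649) and Kremen1 (0.102) were lost and Fzd5 (log2 fold change 1.15, adjusted p = 0.000512) was gained.

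Of 14 secreted or membrane antagonists 3 rose and 1 fell, with a median of 0.26. Dkk3, a member of the Dickkopf family, averaged 8.68 ± 0.76 in CD34+ and 5.19 ± 0.16 in CD34- arrays (n = 6, ± SD), a log2 fold change of 3.49 (limma adjusted p = 4.96e-06). The WNT-binding inhibitors Sfrp1 (1.29) and Wif1 rose, Wif1 at a fitted 3.33 that gives no exact size, since its CD34- values of 2.13 to 3.15 lay around the Trpn controls. Apcdd1, a membrane inhibitor looked up after its value was seen, fell (-0.89, adjusted p = 0.00309). Dkk1 (0.42), Dkk4 (0.20), Sost (0.28) and Sostdc1 (-0.22), which act on LRP5 and LRP6, did not pass by these probe sets, nor did Dkk2 (-0.05). The other Sostdc1 probe set passed as lower in CD34+ cells with 12 arrays. Without CD34+ arrays 1, 3 and 5 the highest-mean probe set of Dkk1 was at -0.16, of Sost at 0.06, of Dkk4 at 0.05 and of Sostdc1 at 0.10. No direction is given for these 4 probe sets.

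Of 17 genes of the cytoplasmic relay 4 rose and 1 fell, beside 7.73% and 17.5% of all genes, and the median of 0.04 was that of all genes. The repressor Tcf7l1 (0.89), which also stands in the bulge list, and the relay protein Dvl1 (0.73) rose, and the kinase Gsk3b fell (-0.76, and -0.43 without CD34+ arrays 1, 3 and 5). Btrc (0.67) and Apc2 (0.40), also chosen after their values were seen, rose too, the call of Apc2 being lost when CD34+ arrays 1, 3 and 5 were set aside (adjusted p = 0.310). The other probe sets of Gsk3b (5), Btrc (4), Apc2 (3) and Dvl1 (1) did not pass. Some genes that did not pass by their highest-mean probe set had others that did. Of Csnk1d 3 of 4 others passed as lower, and of Csnk1g1 1 of 2. Of Apc 2 of 3 others passed as higher, and of Tcf7l2 2 of 3. Ctnnb1, which encodes beta-catenin, averaged 11.89 in CD34+ and 11.86 in CD34- arrays (log2 fold change 0.04, limma adjusted p = 0.877).

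Genes commonly used as WNT targets moved in both directions. Of 12 measured genes, from which the members were left out, 2 rose and 4 fell, with a median of -0.37, beside 7.73% of all genes higher and 17.5% lower. Tnfrsf19, a receptor of the TNF receptor family, averaged 8.11 ± 1.18 in CD34+ and 10.41 ± 0.35 in CD34- arrays (n = 6, ± SD), a log2 fold change of -2.29 (SE 0.44, limma adjusted p = 0.00236). Nkd1, an inhibitor of Dishevelled, rose (1.9, adjusted p = 8.89e-05) by 1 of its 4 probe sets, and Bambi, a decoy receptor for TGF-beta ligands, rose (1.23, adjusted p = 6.42e-05). Axin2, a feedback inhibitor looked up after its value was seen, fell by probe set 1436845_at (-1.22, adjusted p = 0.00153), while its other probe set was at -0.01 (adjusted p = 0.966). Cd44 (-0.48) and Ephb3 (-0.34), looked up in the same way, passed with 12 arrays. Ccnd1 (-0.54) and Ascl2 (-0.95) did not pass by their highest-mean probe sets, while 1 other probe set of each passed as lower. Without CD34+ arrays 1, 3 and 5 the counts were 2 rises and 2 falls, Cd44 (adjusted p = 0.243) and Ephb3 (adjusted p = 0.0688) being lost, while Tnfrsf19 was at -1.67 and Axin2 at -0.86 and passed.

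**Figure D4:**
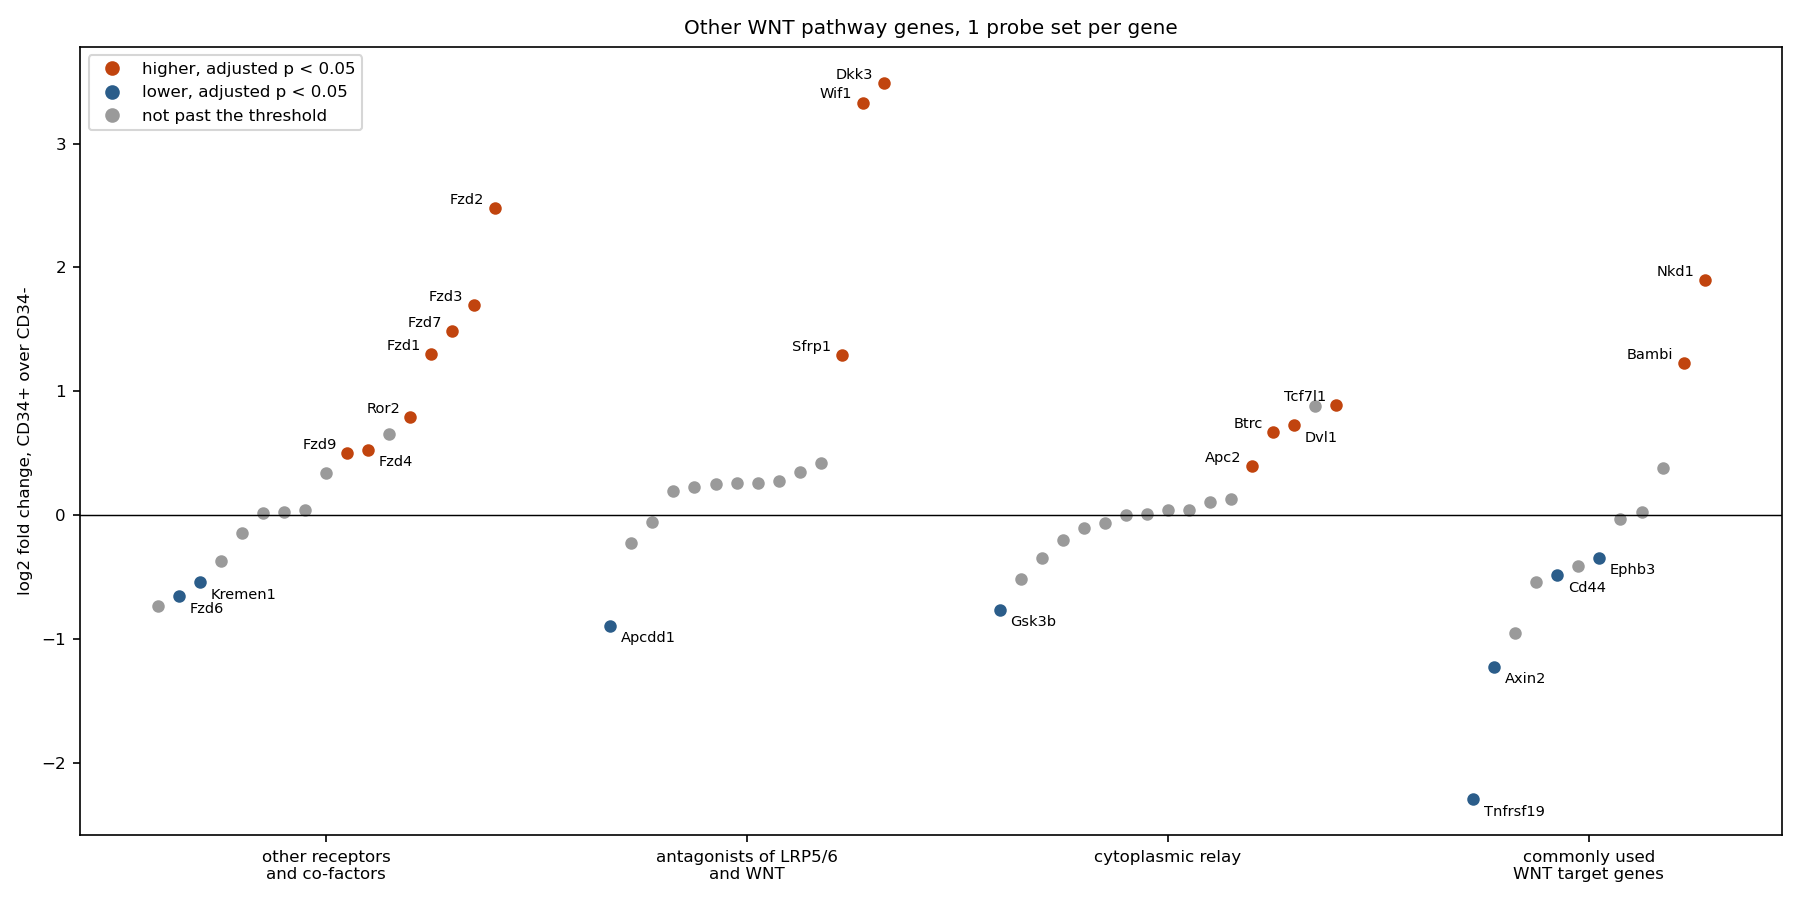
Log2 fold change, CD34+ over CD34-, of the other WNT pathway genes by their highest-mean probe set, in 4 lists. Red points passed higher and blue points lower in CD34+ cells by limma, with gene names, and grey points did not pass. Among the other receptors and co-factors 7 of 17 genes are red, led by Fzd2 (2.48), and among the target genes Tnfrsf19 (-2.29) and Axin2 (-1.22) lie lowest.

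Markers of follicle compartments were read beside the receptors, and their counts stand beside 7.73% of all genes higher and 17.5% lower. The marker and pathway lists were chosen with earlier results of these data known, so their counts describe and do not test. Of 10 bulge and hair germ markers 8 were higher and 0 lower in CD34+ cells, with list means of 8.50 to 9.72 in CD34+ and 6.36 to 6.55 in CD34- arrays. Of its 2 members with the highest means Postn was higher (3.34) and Krt15 did not pass (-0.29). Of 8 isthmus and upper follicle markers 1, Prdm1, was higher and 4 were lower, with list means of 7.97 to 9.28 in CD34+ and 8.80 to 9.37 in CD34- arrays. Krt79 was lower (-1.22), and Defb6 did not pass (-0.35), these having the highest means. Lrig1, a marker of the isthmus chosen like Prdm1 after its value was seen, averaged 8.58 in CD34+ and 9.58 in CD34- arrays (limma adjusted p = 0.0154). Its other probe sets passed in opposite directions, one at -1.29 (limma adjusted p = 0.00147) and the other at 0.37 (adjusted p = 0.0309), so the Lrig1 probe sets disagree. The genes most like Lgr5 over the 12 arrays, by the root mean square difference of values centred on each probe set's own mean, were Col6a1 (0.41), Gfra1 (0.41) and Adcy1 (0.42), with log2 fold changes of 4.25, 3.79 and 3.99. Those most like Lgr6 were Btbd10, Ddx1 and Aplf, each at a root mean square difference of 0.13, with log2 fold changes of -0.69, -0.75 and -0.77. This measure rests mostly on the difference between fractions, so that any gene with a like change scores as alike.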

How the data were processed

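Total RNA of CD34+ and CD34- keratinocytes was labelled with biotin and hybridised to Affymetrix mouse expression arrays, 6 arrays per fraction, per the labels. The deposited values are log2 intensities summarised by RMA, a step the submitters' processing notes name. Its version, and whether arrays were normalized jointly, is not given in the sources used here. Values ran from 1.87 to 14.1. Of 45101 probe sets 64 controls were left out. Annotation of the platform, its symbols brought up to date by Entrez identifier, tied 34945 of the remaining 45037 to 1 gene, 932 to several and named none for 9160.

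limma 3.58.1 in R 4.3.3 compared the fractions (lmFit, eBayes, two-sided, no block, adjusted p under 0.05 over 45037 probe sets). Positive values mean higher in CD34+ cells. Errors are SDs over 6 arrays or limma's standard errors, and the number of arrays limits the precision. The members and lists were chosen with earlier results of these data known. Named are all member probe sets, Cd34, per pathway list up to 3 called genes with the largest change, the 3 genes most like each called Lgr receptor and the 2 genes with the highest mean in each marker list. Other genes are said to be chosen after their values were seen, or stand as values that did not pass.

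Alternatives were means of array pairs, a replicate block, 2 scalings, 1 probe set per gene, a filter on dim probe sets, leaving out arrays, and a trended robust variance. Same-numbered arrays of the fractions had correlated deviations (r over 0.1) in 4 of 6 pairs, from -0.24 to 0.49, so the numbers were not taken to pair samples.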

Additional observations from a re-analysis of the deposited data

Results flagged for a closer look

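Each fraction's 6 values of each member probe set were searched for a single array far from the others, by its gap to the nearest array over the fraction's whole range. Of 34 sets of 6 values 3 held such an array, where chance gives about 5% of sets. Lgr4 1453765_at read 4.19 on CD34+ array 3, against 2.92 to 3.20 on the other CD34+ arrays. Znrf3 1435608_at read 9.02 on CD34- array 6, against 7.98 to 8.33 on the other CD34- arrays. Rnf43 read 5.53 on the same CD34- array 6, against 6.01 to 6.30 on the others.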

How the results depend on the processing

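The number of probe sets called over the whole array was 9704, of which 64.6% were lower in CD34+ cells. That share was 78.9% after median centring, where the median log2 fold change of all probe sets was -0.04, 58.3% after a further quantile normalization (median 0.02) and 52.8% without CD34+ arrays 1, 3 and 5. It was 4750 calls with 1 probe set per gene, where 18193 genes were tested, and 7439 to 12318 on leaving out 1 array. The array number as a replicate block gave 10209 calls, with 3 member probe sets higher and 4 lower, Lgr4 1433891_at gained (adjusted p = 0.0445) and Znrf3 1437646_at lost (adjusted p = 0.0709). No other member call changed under the block, and 3 of 6 CD34+ arrays matched best the CD34- array of their number. Member probe sets called higher numbered 1, in place of 2, with means of arrays 1-2, 3-4 and 5-6 and with 1 probe set per gene, and those called lower numbered 3, in place of 5, without CD34+ arrays 1, 3 and 5. On leaving out 1 array they were 2 to 3 higher and 4 to 5 lower. The highest-mean probe sets of Lgr5, Rspo3, Znrf3 and Rnf43 passed in the same direction under every alternative run. Lgr6 1436218_at passed under each but the one without CD34+ arrays 1, 3 and 5. The paralog differences of 3.62, -1.31 and 4.93 could not pass with means of array pairs (adjusted p = 0.167), and ran over 3.42 to 3.77, -1.46 to -1.23 and 4.81 to 5.11 on leaving out 1 array. The sign turned for these member values, none of which had passed. Rspo1 was at -0.09 after either scaling and -0.04 without the 3 arrays, Rspo3 1443187_at at -0.01 after either scaling and -0.21 without the 3 arrays, Lrp6 1428500_at at -0.04 after median centring, and the Rspo2 probe sets at -0.03 and -0.16 without the 3 arrays. On leaving out 1 array Rspo1 ran from -0.03 to 0.06, Lrp5 from -0.10 to 0.01, Lrp6 1428500_at from -0.04 to 0.15, Lrp6 minus Lrp5 from -0.03 to 0.25 and Rnf43 minus Znrf3 from -0.29 to 0.15. Of the pathway genes that had not passed by their highest-mean probe set, Dkk1 (0.42) was at -0.16, Sostdc1 (-0.22) at 0.10 and Myc (-0.41) at 0.29 without the 3 arrays. The cause of these moves was not tested.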
